A study of Homo sapiens with 30 samples.

Results

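The expression of 52 genes of G2 and mitosis was followed in A375 cells, an established human melanoma line, through sorting for a surface integrin and repeated passage through narrow pores. The 52 genes were taken by symbol from a fixed list, and all 52 had a row among the 26364 genes listed and passed the filter on low counts. The 30 polyA RNA-seq libraries form 10 groups of 3, and levels are given as CPM, the reads of a gene scaled to a common library size. All groups share the A375 background, and the labels name no engineered allele. Cells were stained for integrin β4 (ITGB4, a laminin receptor subunit) and sorted as negative or positive against unstained cells, and the membranes had 5 µm pores and fibronectin on the underside. Parental negative and Parental positive cells were sorted after 0 rounds of migration. Top 10 negative and Top 10 positive cells came from a population that stayed above the membrane in 10 rounds, and Bottom 10 negative and Bottom 10 positive cells from one that crossed it in 10 rounds. Bottom 5 negative cells had crossed in 5 rounds and Top 5 positive cells had stayed above in 5 rounds. The Negative then Bottom 4 and Positive then Bottom 5 groups were first sorted from parental cells and then crossed in 4 and 5 rounds. Per the labels' protocols, cells were grown to near confluence between rounds. The labels call the 3 libraries of a group biological replicates without naming separate cultures, so the p-values below measure the spread between these libraries.

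The products of these genes carry a cell from the end of DNA replication through division. CDK1 bound to cyclin A or B starts mitosis together with the kinases PLK1, AURKA and AURKB, the kinetochore and its checkpoint kinases hold anaphase until every chromosome is attached, and CDC20 then directs the anaphase promoting complex to destroy securin and cyclin B. Transcripts of most of them are low in G1 and high in G2, because the DREAM complex represses them and B-MYB, FOXM1 and NF-Y activate them at promoters that often hold a CHR element and CCAAT boxes. In cultured tumour cells their summed level is commonly read as a measure of the share of dividing cells, and in bulk RNA fewer dividing cells and less RNA of these genes per cell cannot be told apart.

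Promoters were compared first because the members moved together across the libraries. Of the 52 genes, 44 matched an entry in the RefSeq promoter table (GRCh38.p14), which gives 250 bases before and 50 bases after each start site. The CHR letters TTTGAA or TTCGAA, read on both strands, stood in 31 of the 44 windows, or 70.5%, against 16.6% of 27305 promoters and 11.3% of the 11262 tested genes with an entry. CCAAT, read on both strands, stood in 33 of the 44 windows, or 75%, against 35.7% of all promoters, and 22 windows (50%) held it at least 2 times against 11.3%. Both motifs stood together in 27 windows, or 61.4%, against 6.58% of all promoters. Many members are known targets of the factors that use these motifs, so the shares describe the set, and a match is not a measured binding site.

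The 7 stretches that follow are the 250 bases before the start site, 5′ to 3′ on the gene's strand, with CHR and CCAAT letters of either strand in capitals (GRCh38.p14). They show the cyclins CCNB2 (chr15:59104896-59105145, plus strand) and CCNA2 (chr4:121823884-121824133, minus strand), the 4 genes that rose in the Negative then Bottom 4 group, and CDC25B (chr20:3786701-3786950, plus strand), the member that followed the others least. The 4 genes that rose are CKS1B (chr1:154974431-154974680, plus strand), CKAP2L (chr2:112764610-112764859, minus strand), NEK2 (chr1:211675622-211675871, minus strand) and KIF20B (chr10:89701340-89701589, plus strand).
CCNB2: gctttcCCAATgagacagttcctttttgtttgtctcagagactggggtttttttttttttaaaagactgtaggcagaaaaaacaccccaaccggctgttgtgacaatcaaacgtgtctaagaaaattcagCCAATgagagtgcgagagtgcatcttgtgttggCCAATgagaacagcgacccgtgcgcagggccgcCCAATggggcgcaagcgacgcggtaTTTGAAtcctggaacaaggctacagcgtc
CCNA2: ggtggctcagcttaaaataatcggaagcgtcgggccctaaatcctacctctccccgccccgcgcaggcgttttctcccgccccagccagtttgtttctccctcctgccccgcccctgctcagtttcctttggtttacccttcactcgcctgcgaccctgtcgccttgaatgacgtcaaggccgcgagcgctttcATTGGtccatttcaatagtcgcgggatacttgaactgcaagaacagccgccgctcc
CKS1B: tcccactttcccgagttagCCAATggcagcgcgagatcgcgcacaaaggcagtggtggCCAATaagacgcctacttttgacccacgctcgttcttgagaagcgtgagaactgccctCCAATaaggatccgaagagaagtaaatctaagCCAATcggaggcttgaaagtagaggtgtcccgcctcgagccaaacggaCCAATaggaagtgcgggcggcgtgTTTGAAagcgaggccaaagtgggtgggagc
CKAP2L: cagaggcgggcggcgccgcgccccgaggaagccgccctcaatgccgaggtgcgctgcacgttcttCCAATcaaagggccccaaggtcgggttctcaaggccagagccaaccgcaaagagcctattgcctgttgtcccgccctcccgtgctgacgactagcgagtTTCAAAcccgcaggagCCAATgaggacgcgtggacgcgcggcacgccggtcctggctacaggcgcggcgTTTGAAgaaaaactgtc
NEK2: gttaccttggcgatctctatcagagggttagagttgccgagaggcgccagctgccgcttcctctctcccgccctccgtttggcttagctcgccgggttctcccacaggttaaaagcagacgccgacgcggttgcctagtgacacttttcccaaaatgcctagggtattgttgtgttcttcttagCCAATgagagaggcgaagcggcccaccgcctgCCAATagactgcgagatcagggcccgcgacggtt
KIF20B: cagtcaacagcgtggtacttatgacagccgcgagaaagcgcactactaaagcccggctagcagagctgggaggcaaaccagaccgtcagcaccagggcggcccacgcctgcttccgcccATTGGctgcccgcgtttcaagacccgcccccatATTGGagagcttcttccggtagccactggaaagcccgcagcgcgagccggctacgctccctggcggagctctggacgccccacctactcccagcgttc
CDC25B: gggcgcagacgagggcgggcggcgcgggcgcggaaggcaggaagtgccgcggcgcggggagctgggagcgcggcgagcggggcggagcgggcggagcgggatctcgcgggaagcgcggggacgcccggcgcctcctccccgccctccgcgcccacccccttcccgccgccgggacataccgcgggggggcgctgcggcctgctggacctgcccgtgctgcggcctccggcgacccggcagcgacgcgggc
CCNB2 holds 4 CCAAT boxes and a CHR that begins 29 bases before the start site. CKS1B holds 5 CCAAT boxes and a CHR that begins at 30 bases before it. CKAP2L holds 2 of each, and NEK2 and KIF20B hold 2 CCAAT boxes in the stretch shown. KIF20B also has 2 CHR matches after the start site, from base 25 and base 31, which lie in its window but outside the stretch shown, and NEK2 has none. CCNA2, whose expression followed the other members most closely, has 1 CCAAT box and neither TTTGAA nor TTCGAA on either strand of its window. Other spellings of the CHR were not searched, so a lack of these letters does not show that a gene has no CHR. CDC25B has neither motif in its window.

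The libraries held 14258919 to 29134945 gene counts, which leaves counting error small beside the spread between libraries for these genes. Of the 52 members, 51 were above 10 CPM in every library, and levels of single members ran from 9.82 to 811 CPM. ITGB4 itself differed by log2 fold changes of 1.85, 1.97 and 1.41 between the positive and negative sorts of parental, Top 10 and Bottom 10 cells, and none passed the test (edgeR quasi-likelihood, adjusted p = 1, 1 and 0.9998). The melanocyte markers SOX10 (258 to 1462 CPM) and MITF (23.6 to 69.4 CPM) were detected in all 30 libraries, whereas TYR was at 0 in 28 and MLANA did not exceed 0.556 CPM. Of the leukocyte markers, CD3E of T cells was at 0 in all 30 and PTPRC did not exceed 0.167 CPM. CD68 (22.3 to 158 CPM) and LYZ (2.28 to 11.5 CPM) of the same list were detected in all 30. On the second principal component of all tested genes, 6 libraries stood apart with a score above 30: Top 10 negative 1, Bottom 10 positive 3, Negative then Bottom 4 2, Bottom 5 negative 2, Top 5 positive 1 and Top 5 positive 3. Comparisons that include one of them are also given without the 6.

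The summed level of the 52 genes differed more between libraries of 1 group than between most groups. It ran from 3716 CPM in Parental negative 1 to 9297 CPM in Top 10 positive 3, a 2.50-fold range. By this sum Negative then Bottom 4 was the highest and the tightest group, with 9157, 9110 and 9037 CPM and a mean of 9101 ± 60.5 (SD, n = 3). Positive then Bottom 5 (8428 ± 490), Parental positive (8198 ± 468) and Bottom 10 negative (8181 ± 820) followed, and these 3 groups lay within each other's spread. Bottom 5 negative had 7441 ± 1963 CPM, Bottom 10 positive 7312 ± 1773, Top 10 positive 6881 ± 2340, Top 5 positive 6726 ± 1464, Top 10 negative 6310 ± 2430 and Parental negative 6202 ± 2209. In these 6 groups the libraries spread widely, and the range of each overlapped that of the next. The tight sum of Negative then Bottom 4 hid opposite differences between its libraries. Its members with shorter exons summed to 3519, 4606 and 3698 CPM in libraries 1, 2 and 3. Those with longer exons summed to 5638, 4504 and 5339 CPM.

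**Figure D1:**
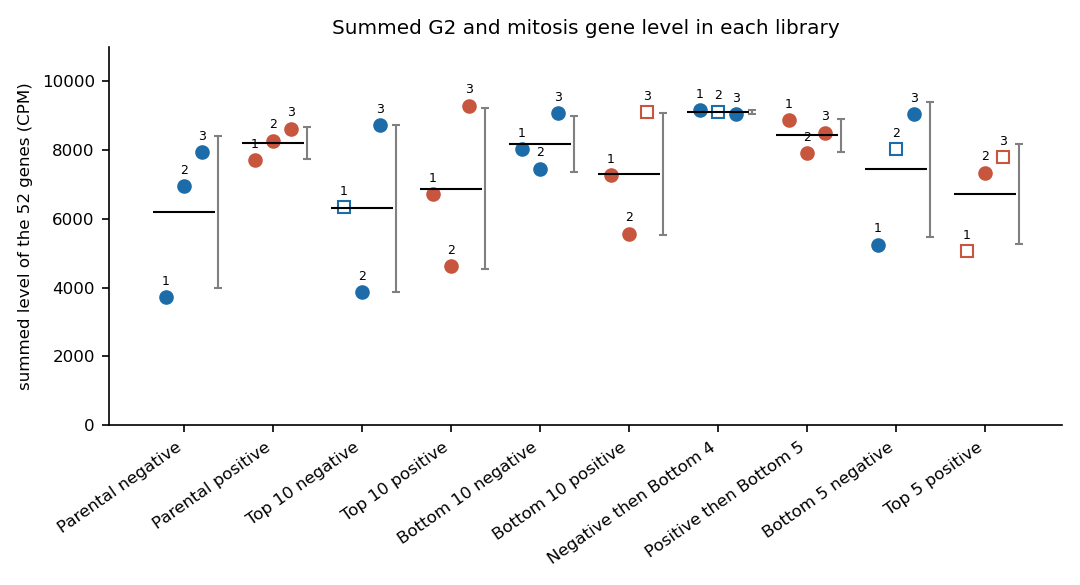
Summed level of the 52 genes in each library (vertical axis, CPM from 0) by group (horizontal axis), with the replicate number above each point, the group mean as a black line and the SD as a grey bar (n = 3). Blue is the negative and red the positive sort, and open squares are the 6 libraries apart on the second component. The 3 Negative then Bottom 4 libraries sit between 9037 and 9157 CPM, while Parental negative spans 3716 to 7939 CPM.

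The low libraries were low across the whole set. In Parental negative 1 all 52 members were at their lowest of the 3 libraries of the group, and in Top 10 negative 2 and Top 10 positive 2 this held for 51 members each. In Bottom 5 negative 1 and Bottom 10 positive 2 it held for 45 each and in Top 5 positive 1 for 41. Such counts were not limited to libraries with a low sum. The count was 41 in Bottom 10 negative 2 (7455 CPM), 36 in Positive then Bottom 5 2 (7902 CPM) and 35 in Parental positive 1 (7699 CPM). CCNB1, the main mitotic cyclin, had 109 CPM in Parental negative 1 against 259 and 298 in the other 2 libraries, and CDC20 had 82.1 CPM against 266 and 318. The summed level of 43 S phase genes was also lowest there: 1659 CPM in Parental negative 1 against 3848 and 4522, and 1570 CPM in Top 10 negative 2 against 2956 and 4802. The summed melanocyte markers, nearly all SOX10, were 1419 CPM in Parental negative 1 against 808 and 640 CPM, and 1510 CPM in Top 10 negative 2 against 1162 and 1030 CPM, and their part in the low levels was not tested.

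**Figure D2:**
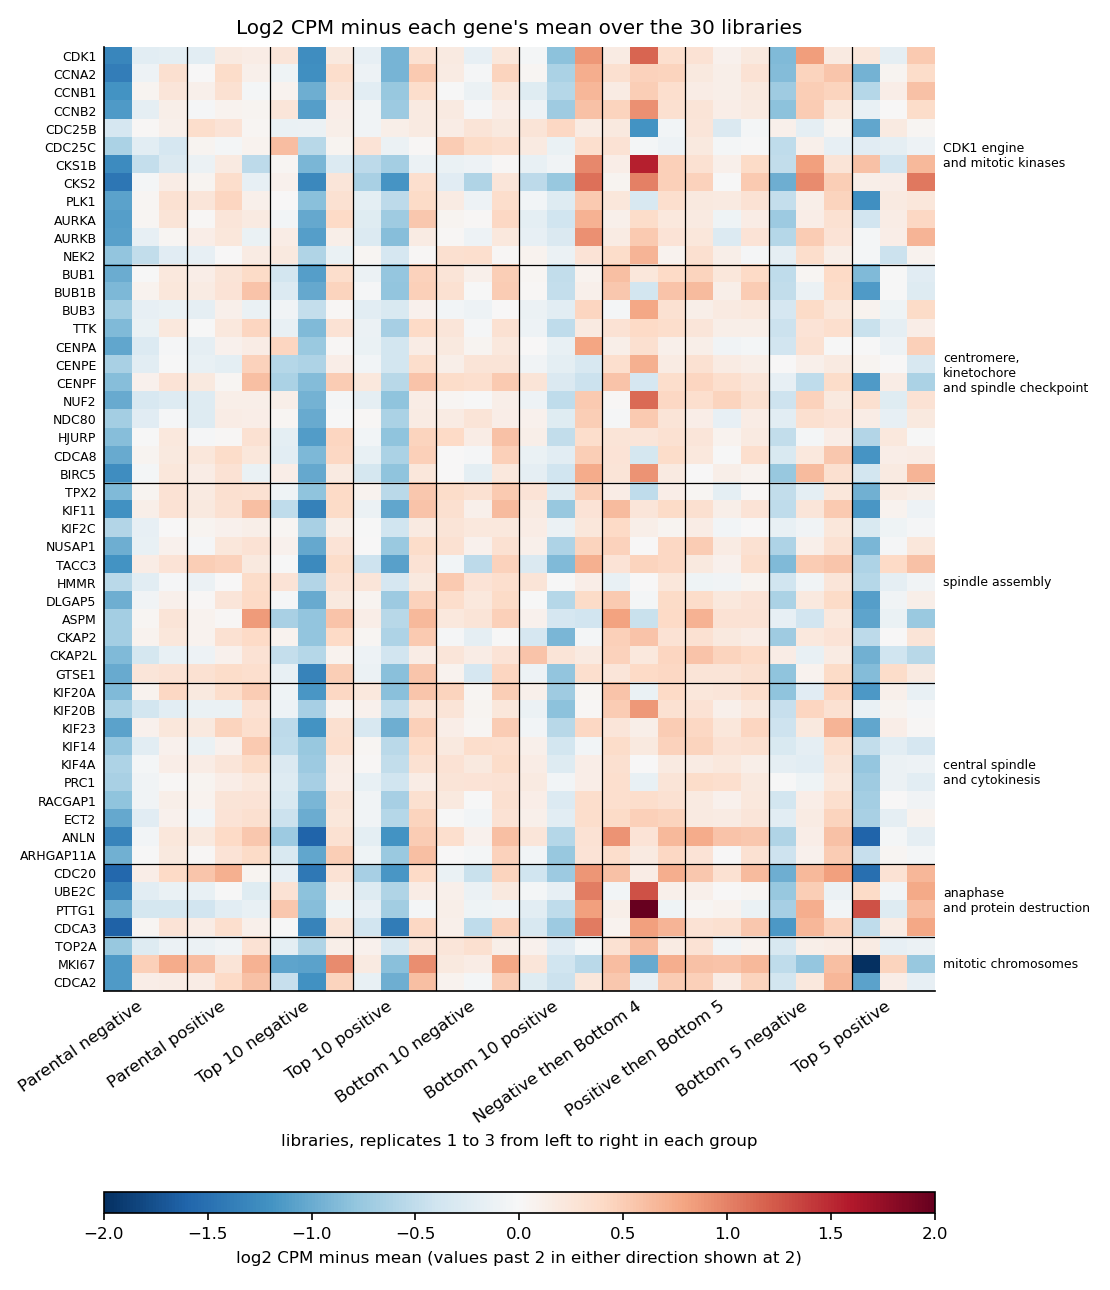
Log2 CPM of each of the 52 genes (rows, grouped by role) minus that gene's mean over the 30 libraries, in each library (columns, 3 per group). Blue is below and red above the gene's mean, and whole columns are blue in Parental negative 1, Top 10 negative 2 and Top 10 positive 2, whereas Negative then Bottom 4 2 mixes dark red (PTTG1, CKS1B) with blue (MKI67, CDC25B).

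After the group means were removed, 68.3% of the variance of the median member remained within groups (range 22.8 to 85.5%), against 64.3% for the median tested gene. The members varied together within groups. Members read in the same library share its depth and its cells. The correlation of a member's log2 deviation with the mean deviation of the other 51 over the 30 libraries had a median of 0.90 and exceeded 0.9 for 24 members. It was highest for CCNA2 (cyclin A2, r = 0.98), RACGAP1 (a central spindle protein needed for cytokinesis, r = 0.98), TTK (the checkpoint kinase MPS1, r = 0.98), AURKA (the kinase of spindle poles, r = 0.98) and CKAP2 (a spindle protein, r = 0.98). It was lowest for CDC25B (the phosphatase that activates CDK1 at the centrosome, r = 0.25), PTTG1 (securin, r = 0.39), CENPE (a kinetochore motor, r = 0.53), CKS1B (a small CDK subunit, r = 0.54) and NEK2 (the kinase that separates centrosomes, r = 0.59). Without the 6 libraries apart, the value for CENPE was 0.76 and that for PTTG1 0.60, and that for CDC25B was 0.29.

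Within the CDK1 engine and its kinases, CKS2 (a CDK subunit like CKS1B) had the highest level per length of exon, 217 CPM per kilobase. CKS1B and CKS2 are close paralogs. Reads at more than 1 place were totalled outside the genes, and how many of them came from this pair is not given in the sources used here. CDK1 ran from 39.8 CPM in Parental negative 1 to 221 CPM in Negative then Bottom 4 2, and PLK1 from 98.4 CPM in Top 5 positive 1 to 333 CPM in Bottom 10 positive 3. AURKA ran from 64.0 to 222 CPM. CDC25B had 220.5 CPM in Parental negative 1 against 284 and 300.2, and 258 CPM in Top 10 negative 2 against 254 and 302. Its lowest values were 122 CPM in Negative then Bottom 4 2 and 135 CPM in Top 5 positive 1, against 317 and 287 CPM in Top 5 positive 2 and 3.

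The kinetochore and checkpoint genes were led per length by NUF2 (a subunit of the NDC80 complex that grips microtubules, 45 CPM per kilobase), the spindle assembly genes by TPX2 (the activator of AURKA on the spindle, 78.1) and the cytokinesis genes by ANLN (anillin, the scaffold of the cleavage furrow, 53.4). CDC20 (the activator of the anaphase promoting complex, 148 CPM per kilobase) led the anaphase genes and TOP2A (the topoisomerase that untangles sister chromatids, 94.0) the chromosome genes. Within groups the least variable members were KIF2C (a kinesin that removes tubulin from microtubule ends, SD 0.22 on the log2 scale), CKAP2L, PRC1, TOP2A and NEK2 (0.24 to 0.25). The most variable were MKI67 (the Ki-67 protein that coats mitotic chromosomes, SD 0.83), CDC20 (0.78), CDCA3 (0.72), CKS2 (0.70) and TACC3 (0.63). MKI67 and TOP2A, both used as proliferation markers, thus differed in spread: MKI67 ran from 66.9 CPM in Top 5 positive 1 to 644 in Top 10 negative 3, and TOP2A from 313 CPM in Parental negative 1 to 811 in Negative then Bottom 4 2. The lowest MKI67 and the highest TOP2A value came from libraries apart. The mean log2 difference of the 6 libraries apart from the others of their groups was -1.32 for MKI67 and 0.17 for TOP2A. The part of these libraries in the spread was not tested.

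Negative then Bottom 4 against Parental negative sets cells crossed in 4 rounds after the negative sort against cells sorted after 0 rounds. Crossing, the growth between rounds and the time since the sort differ together between these groups and cannot be told apart. The comparison was the 1 of 13 in which members passed the test. NEK2, CKAP2L (a spindle protein related to CKAP2), KIF20B (a kinesin of the late central spindle) and CKS1B rose. These are 4 of 52 members, or 7.69%, where 0.904% of all 15381 tested genes were called higher, and 0 members were called lower, where 1.1% of all tested genes were. The fold change was above 1 for 51 of 52 members, against 50.6% of all tested genes, and its median was 0.55 on the log2 scale (1.47-fold), against 0.01 for all tested genes. At an unadjusted p under 0.05 there were 16 members, or 30.8%, against 19.5% of all tested genes.

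NEK2 had 37.6, 46.1 and 55.7 CPM in Parental negative and 83.8, 104 and 68.6 CPM in Negative then Bottom 4. The groups did not overlap, and the log2 fold change was 0.88 ± 0.21 (SE, edgeR quasi-likelihood, adjusted p = 0.0309). CKAP2L had 36.0, 52.2 and 60.0 CPM against 91.7, 77.3 and 89.6 CPM, again without overlap (log2 fold change 0.80 ± 0.20, edgeR adjusted p = 0.0376). KIF20B had 73.3, 88.4 and 97.9 CPM against 161, 206 and 140.1 CPM (log2 fold change 0.97 ± 0.25, edgeR adjusted p = 0.0433). CKS1B had 54.1, 93.3 and 107 CPM against 143, 384 and 181 CPM (log2 fold change 1.48 ± 0.39, edgeR adjusted p = 0.0464), and these 2 genes did not overlap either. In all 4 genes Parental negative 1 was the lowest of the 6 libraries, and Negative then Bottom 4 2 was the highest for NEK2, KIF20B and CKS1B but the lowest of its group for CKAP2L.

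**Figure D3:**
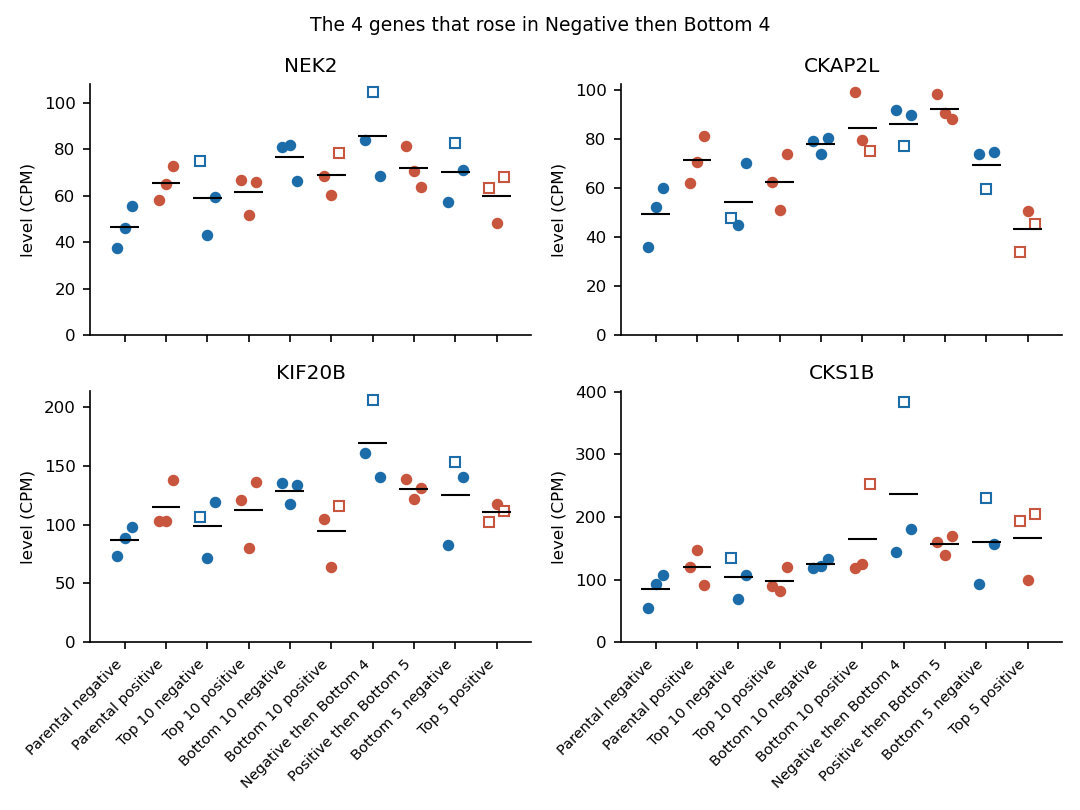
Level (CPM, from 0) of NEK2, CKAP2L, KIF20B and CKS1B in each library of the 10 groups, with the group mean as a black line, negative sorts in blue, positive sorts in red and the 6 libraries apart as open squares. In all 4 panels the Negative then Bottom 4 libraries lie above the 3 Parental negative libraries, and for CKS1B 1 open square at 384 CPM lies far above the rest.

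These calls rest on few libraries. Without Parental negative 1, or without Parental negative 2, 0 of the 4 passed, without Parental negative 3 there were 2 calls, and without Negative then Bottom 4 2 only CKAP2L remained called (log2 fold change 0.88 ± 0.22, adjusted p = 0.0466). CKAP2L itself did not pass without Negative then Bottom 4 1 (adjusted p = 0.0554) or 3 (adjusted p = 0.0728). Without the 6 libraries apart CKAP2L was again the single call (0.86 ± 0.21, adjusted p = 0.0464), and the median of the 52 was 0.53. DESeq2 called these 4 and also NUF2, PTTG1 and TOP2A, where it called 1.92% of the genes it tested higher, and it called 0 members in each of the other comparisons. The median log2 fold change of the 52 was 0.30 without Parental negative 1, so the sign of the shift did not depend on that library while its size did. In Negative then Bottom 4 the melanocyte markers summed to 351 to 657 CPM against 640 to 1419 CPM in Parental negative, and the keratinocyte markers, mainly KRT10 and with TP63 and DSG3 near 0, to 93.0 to 226 CPM against 69.0 to 115 CPM. Their part in the result was not tested.

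Several members that edgeR did not call were also high in Negative then Bottom 4. PTTG1 had 63.7, 98.4 and 97.5 CPM against 136, 502 and 118 CPM, and CDK1 had 39.8, 84.8 and 85.8 CPM against 110.5, 221 and 124 CPM. For both the groups did not overlap, and for both the library at the top was Negative then Bottom 4 2. MKI67 had 153, 467 and 562 CPM against 517, 167 and 557 CPM, which overlap. CDC25B was the 1 member with a fold change below 1, with 220.5, 284 and 300.2 CPM against 319, 122 and 269 CPM. Altogether 25 members were higher in Negative then Bottom 4 with no overlap of the 3 and 3 libraries, or 48.1%, where 9.45% of all tested genes were.

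**Figure D4:**
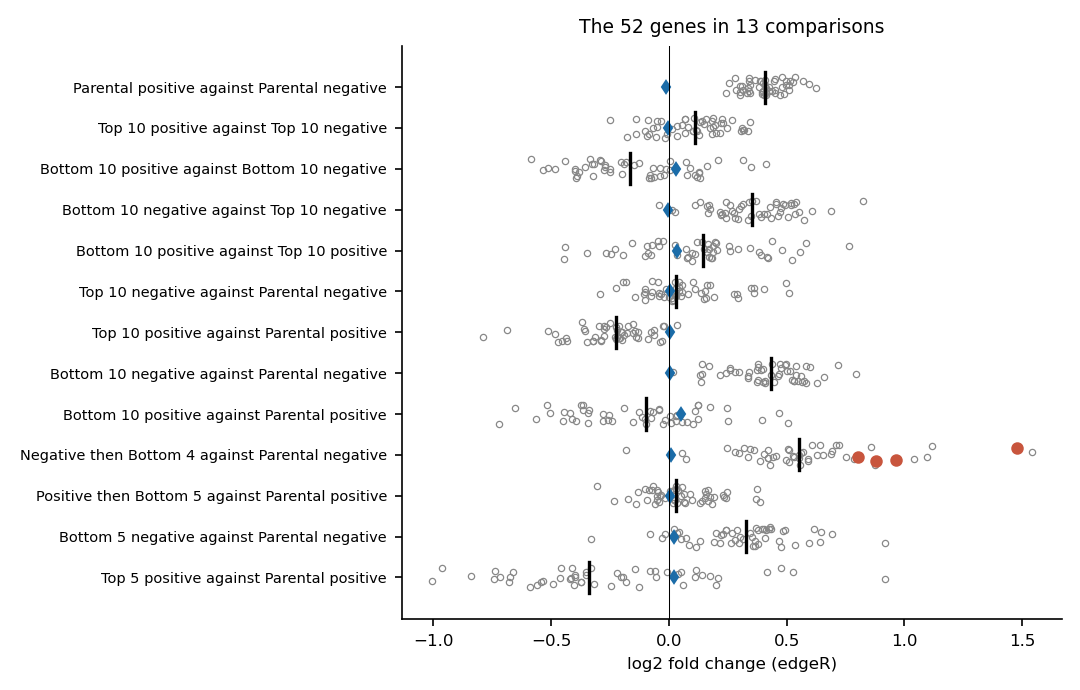
Log2 fold change (horizontal axis) of the 52 genes in the 13 comparisons (vertical axis), 1 circle a gene, with called genes as filled red points, the median of the 52 as a black bar and the median of all tested genes as a blue diamond. Filled points occur in Negative then Bottom 4 against Parental negative alone, and the bars lie furthest from 0 there (0.55) and in Bottom 10 negative against Parental negative (0.43).

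In the parental cells, which were sorted with no migration, the positive sort was compared with the negative sort. edgeR called 0 of the 52 members, where it called 0.0585% of all tested genes, and 2 members (3.85%) were at an unadjusted p under 0.05, against 4.45% of all tested genes. All 52 members had a fold change above 1, against 48.3% of all tested genes, with a median log2 of 0.41, and without Parental negative 1 the median was 0.16. CKAP2L had 62.1, 70.5 and 81.3 CPM in Parental positive against 36.0, 52.2 and 60.0 CPM (1.44-fold, unadjusted p = 0.0140, edgeR adjusted p = 0.753). NEK2 had 58.1, 65.2 and 72.5 CPM against 37.6, 46.1 and 55.7 CPM (1.40-fold, edgeR adjusted p = 0.952). CDC25C, the phosphatase that activates CDK1 at mitotic entry, had 15.9, 14.8 and 16.0 CPM against 9.82, 13.1 and 12.0 CPM (1.33-fold, edgeR adjusted p = 1). These 3 genes are among 11 members, or 21.2%, that were higher without overlap, where 4.47% of all tested genes were.

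Bottom 10 and Top 10 cells differ in whether they crossed the membrane in 10 rounds. In the negative sort, 51 of 52 members had a fold change above 1 in Bottom 10 negative, against 49.2% of all tested genes, with a median log2 of 0.35. edgeR called 0 members, where it called 1.33% of all tested genes in either direction and 0.949% higher, and 4 members (7.69%) had an unadjusted p under 0.05, against 9.04% of all tested genes. The median was 0.42 without the 6 libraries apart, 0.12 without Top 10 negative 2 and 0.64 without Top 10 negative 3. The 3 with the smallest p were CKAP2L (79.3, 74.0 and 80.5 CPM against 47.9, 45.1 and 70.1, adjusted p = 0.309), PRC1 (the bundler of the central spindle, 258, 261 and 263 CPM against 182, 137 and 237, adjusted p = 0.393) and CENPE (91.3, 100.3 and 100.1 CPM against 56.7, 54.7 and 92.4, adjusted p = 0.424). CKAP2, which lies on chromosome 13, was the 1 member below 1, at a log2 fold change of -0.04, and the median of the 274 other tested genes of that chromosome was -0.22.

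Among the 4 groups of 10 rounds, libraries with the same replicate number deviated together in all pairs of groups except Top 10 negative with Bottom 10 positive. There the correlations were -0.12, 0.61 and 0.38 for numbers 1, 2 and 3. A fit of the 4 groups with the replicate number as a block called 5 members higher in Bottom 10 negative than in Top 10 negative. They were ANLN, KIF4A (a chromosome-bound kinesin of the central spindle), KIF11 (the motor that separates spindle poles), KIF23 (the partner of RACGAP1) and HJURP (the chaperone that loads the centromere histone CENPA), 9.62% of the 52, where the fit called 4.7% of 14587 genes higher. ANLN had 140.0, 76.7 and 287 CPM in replicates 1, 2 and 3 of Top 10 negative and 294, 247 and 352 CPM in those of Bottom 10 negative (log2 fold change 1.02 ± 0.25, adjusted p = 0.0322). KIF11 had 127, 70.8 and 237 CPM against 226, 194 and 281 CPM (0.85 ± 0.22, adjusted p = 0.0374). Each of these genes was higher in Bottom 10 negative in all 3 pairs. The remaining 3 had log2 fold changes of 0.57 (KIF4A, adjusted p = 0.0327), 0.70 (KIF23, adjusted p = 0.0410) and 0.67 (HJURP, adjusted p = 0.0462).

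The pairs were unequal in size. The summed level in Bottom 10 negative over that in Top 10 negative was 1.26 for replicate 1, 1.93 for replicate 2 and 1.04 for replicate 3. With the block and without replicate 1 or without replicate 2 there were 0 calls, and without replicate 3 there were 24. The share of all genes called higher moved as well, with 1.82% without replicate 1, 0.425% without replicate 2 and 6.95% without replicate 3. In the positive sort the ratios were 1.08, 1.20 and 0.979, the median log2 fold change was 0.14 and turned to -0.15 without the 6 libraries apart, and 36 of 52 members were above 1, against 53.9% of all tested genes.

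edgeR called 0 members in the positive sort of Bottom 10 against Top 10, where it called 0.943% of all tested genes, and 0 with the block, where it called 3.93% higher. Without the block 1 member (1.92%) had an unadjusted p under 0.05, against 9% of all tested genes. CKAP2L had 99.0, 79.5 and 75.3 CPM against 62.3, 51.2 and 73.8 CPM (adjusted p = 0.493). CKS1B (118, 125 and 253 CPM against 90.3, 81.4 and 120.0, adjusted p = 0.583) and UBE2C (the ubiquitin-conjugating enzyme of the anaphase promoting complex, 129.6, 119 and 273 CPM against 112, 88.4 and 149, adjusted p = 0.771) overlapped, and their high value was that of Bottom 10 positive 3, a library apart.

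Between the sorts of the 10-round cells, 0 members were called by edgeR, with or without the block. Without the block 0 had an unadjusted p under 0.05, against 1.71% of all tested genes for Top 10 and 3.57% for Bottom 10. Of all tested genes 0.013% were called for Top 10 and 0% for Bottom 10, and with the block 0.123% and 0.343% were called higher. In Top 10, 37 of 52 members were above 1, against 49.5% of all tested genes, and the median log2 fold change of positive over negative was 0.11, and within the pairs of replicates 1, 2 and 3 it was 0.03, 0.25 and 0.10. With the block and 1 replicate number left out it ran from 0.06 to 0.18, and without the block and with 1 library left out from -0.19 to 0.38. It was 0.14 without the 6 libraries apart. The smallest p belonged to CENPE (80.8, 65.2 and 107 CPM against 56.7, 54.7 and 92.4), ECT2 (the activator of RhoA at the cleavage site, 1.24-fold) and TOP2A (1.17-fold), all with adjusted p = 1.

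In Bottom 10 the median was -0.16, with 15 of 52 members above 1, against 54% of all tested genes. CENPE (80.2, 73.7 and 67.3 CPM in Bottom 10 positive against 91.3, 100.3 and 100.1), KIF20B (105, 64.2 and 116 against 136, 117 and 133) and KIF14 (a kinesin of the midbody, 107, 77.4 and 96.5 against 114, 128 and 126) were lower without overlap, each with adjusted p = 0.9998. Such separation held for 11 members, or 21.2%, where it held for 5.84% of all tested genes. Without the 6 libraries apart, which leaves Bottom 10 positive with 2, the median was -0.42, and without Bottom 10 positive 2 it was -0.0048. Within the pairs of replicates 1, 2 and 3 the median was -0.18, -0.46 and -0.0048.

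Whether the difference between sorts itself changed with migration was tested as an interaction. For Bottom 10 against Parental the interaction was above 0 in 0 of 52 members, against 55.9% of all tested genes, with a median of -0.55 on the log2 scale, and by the medians above the positive sort was the higher in parental cells and the lower in Bottom 10 cells. edgeR called 0 members and 0% of all tested genes in either direction, and 7 members (13.5%) had an unadjusted p under 0.05, against 3.01% of all tested genes. The median was -0.80 without the 6 libraries apart and -0.30 without Parental negative 1, with 9 members then above 0. The smallest were KIF20B (-0.85 ± 0.35), CENPE (-0.73 ± 0.31) and KIF14 (-0.84 ± 0.37), each with adjusted p = 1. For Top 10 against Parental the median was -0.29 and for Bottom 10 against Top 10 it was -0.25. In each, 0 members and 0% of all tested genes were called. At an unadjusted p under 0.05 there were 0 and 1 members, against 0.819% and 2.87% of all tested genes. Without the 6 libraries apart these medians were -0.25 and -0.55, and without Top 10 negative 2 the second was 0.0055.

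Against the parental cells of the same sort, Bottom 10 negative had all 52 members above 1, against 50.5% of all tested genes, with a median log2 fold change of 0.43. edgeR called 0 of them, where it called 0.325% of all tested genes, and 10 (19.2%) had an unadjusted p under 0.05, against 7.64% of all tested genes. CDC25C had 21.7, 19.9 and 19.2 CPM against 9.82, 13.1 and 12.0 CPM (1.74-fold, adjusted p = 0.149). NEK2 (81.0, 81.8 and 66.4 CPM, 1.64-fold, adjusted p = 0.189) and CKAP2L (1.58-fold, adjusted p = 0.213) followed. These 3 groups of values did not overlap, and 24 members in all, or 46.2%, were higher without overlap, where 9.03% of all tested genes were. Without Parental negative 1 the median was 0.17. Negative then Bottom 4, Bottom 10 negative, Bottom 5 negative and Parental positive were all set against the same 3 Parental negative libraries.

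Bottom 10 positive against Parental positive had a median of -0.10 and 18 of 52 members above 1, against 55.7% of all tested genes, with 0 calls by edgeR, where 0.247% of tested genes were called, and 1 member (1.92%) at an unadjusted p under 0.05, against 8.3% of all tested genes. That member was CKAP2 (86.4, 57.9 and 106 CPM against 114, 135 and 145, log2 fold change -0.65 ± 0.31, adjusted p = 0.597), which did not overlap. The 274 other tested genes of chromosome 13 had a median of -0.31. ASPM (a protein of spindle poles, 209, 157 and 152 CPM against 207, 201 and 357, adjusted p = 0.700) and UBE2C (adjusted p = 0.732) overlapped. The median was -0.42 without the 6 libraries apart.

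Top 10 negative against Parental negative had a median log2 fold change of 0.03, which was 0.0023 without the 6 libraries apart, -0.25 without Top 10 negative 3, -0.24 without Parental negative 1 and 0.29 without Top 10 negative 2. CDC25C (23.3, 10.3 and 15.8 CPM against 9.82, 13.1 and 12.0, adjusted p = 0.963) was the 1 member at an unadjusted p under 0.05 (4.74% of all tested genes were), ahead of NEK2 (1.27-fold, adjusted p = 0.998) and HMMR (a spindle protein, 1.22-fold, adjusted p = 0.998). Top 10 positive against Parental positive had a median of -0.22, with 1 of 52 members above 1, against 50.8% of all tested genes. There 0 members had an unadjusted p under 0.05, against 9.05% of all tested genes. TACC3 (a stabiliser of spindle microtubules, 0.62-fold, adjusted p = 0.714), CDC20 (153, 108 and 321 CPM against 356, 398 and 252, adjusted p = 0.739) and KIF23 (0.72-fold, adjusted p = 0.785) had the smallest p. edgeR called 0 members in both comparisons, where it called 0.0455% and 0.384% of tested genes. The median of Top 10 positive was -0.01 without Top 10 positive 2.

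Positive then Bottom 5 was close to Parental positive, with a median of 0.03 (-0.01 without Parental positive 1). edgeR called 0 members, where it called 0.039% of tested genes, and 0 had an unadjusted p under 0.05, against 3.01% of all tested genes. CKAP2L (98.5, 90.7 and 88.1 CPM against 62.1, 70.5 and 81.3), NUF2 (109.7, 118 and 109 against 72.2, 93.8 and 94.6) and BUB3 (a checkpoint protein, 1.17-fold) were higher without overlap, each with adjusted p = 0.9998. In all, 7 members were higher and 1 was lower without overlap, where 7.12% and 6.92% of all tested genes were. Top 5 positive against Parental positive had a median of -0.34, 17 members (32.7%) lower without overlap, where 9.61% of tested genes were, and 4 members (7.69%) at an unadjusted p under 0.05, against 17.4% of all tested genes. CKAP2L had 34.2, 50.6 and 45.4 CPM against 62.1, 70.5 and 81.3 CPM (log2 fold change -0.72 ± 0.20, adjusted p = 0.226). ASPM (94.7, 181 and 117 CPM, adjusted p = 0.238) and KIF4A (50.4, 79.3 and 80.6 CPM, adjusted p = 0.247) were next, and edgeR called 0 members, where it called 0.163% of tested genes. Top 5 positive 1 and 3 are 2 of the libraries apart, and with Top 5 positive 2 alone the median was -0.19.

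Bottom 5 negative against Parental negative had a median of 0.33, with 48 of 52 members above 1, against 52.5% of all tested genes, and the median was 0.05 without Parental negative 1 and 0.20 without the 6 libraries apart. edgeR called 0 members, where it called 0.858% of tested genes, and 4 (7.69%) had an unadjusted p under 0.05, against 9.14% of all tested genes, led by NEK2 (57.2, 82.6 and 70.9 CPM, 1.51-fold, adjusted p = 0.252), CKAP2L (1.41-fold, adjusted p = 0.391) and CKS1B. The replicate numbers of these 2 groups pair, and a fit of both with the number as a block called CKS1B alone, 1.92% of the members, where it called 1.18% of 14192 genes higher. CKS1B had 92.9, 231 and 156 CPM in Bottom 5 negative 1, 2 and 3 against 54.1, 93.3 and 107 CPM in Parental negative 1, 2 and 3 (log2 fold change 0.89 ± 0.18, adjusted p = 0.0428). Without replicate 2, which holds the library apart, CKS1B did not pass (0.64 ± 0.11, adjusted p = 0.108), and 0 members were called. The summed level over that of the paired parental library was 1.41, 1.15 and 1.14.

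CKAP2L stood apart from the other members in how its variance was split. Only 22.8% of it lay within groups, the smallest share of the 52. Its group means ran from 43.4 ± 8.42 CPM in Top 5 positive (SD, n = 3) and 49.4 ± 12.2 in Parental negative through 54.4 ± 13.7 in Top 10 negative, 62.4 ± 11.3 in Top 10 positive, 69.5 ± 8.38 in Bottom 5 negative, 71.3 ± 9.60 in Parental positive, 77.9 ± 3.42 in Bottom 10 negative, 84.6 ± 12.6 in Bottom 10 positive and 86.2 ± 7.80 in Negative then Bottom 4 to 92.4 ± 5.39 in Positive then Bottom 5. Each step between neighbours in this order was no larger than the larger of their 2 SDs. The 3 groups that stayed above the membrane were among the 4 lowest, and the 5 groups that crossed it among the 6 highest. This pattern was picked after the values were seen, and among single comparisons CKAP2L passed the test in Negative then Bottom 4 against Parental negative.

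The shorter members behaved differently from the longer ones in the 6 libraries apart. The 52 genes were split at an exon length of 3259.5 bases (GENCODE gene models), 26 to a side. The summed level of the shorter over that of the longer genes was 0.924 to 1.06 in the 6 libraries and 0.551 to 0.751 in the other 24, with no overlap. PTTG1 had 502 CPM in Negative then Bottom 4 2 and 302 CPM in Top 5 positive 1 against at most 136 CPM in the 24 libraries, and MKI67, the longest member, had 66.9 to 232 CPM in the 6 against 153 to 644 CPM in the 24. Over the 52 genes the correlation of log2 exon length with the mean log2 difference between these libraries and the others of their groups was -0.75, and over 14937 tested genes it was -0.48. Reads at more than 1 place made up 9.16 to 13.3% in the 6 libraries and 7.80 to 9.21% in the 24, and ambiguous reads 1.85 to 2.27% against 1.54 to 1.74%. Their part in the levels was not tested.

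**Figure D5:**
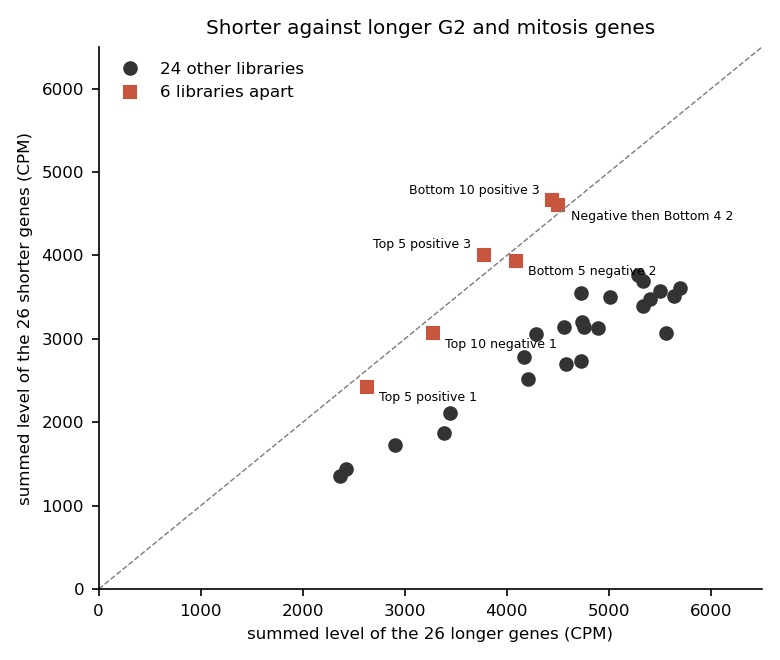
Summed level of the 26 members with shorter exons (vertical axis, CPM) against that of the 26 with longer exons (horizontal axis, CPM) in each of the 30 libraries, with a dashed line of equal levels. The 6 red squares, the libraries apart, lie along the line with ratios of 0.924 to 1.06, and the 24 dark points lie below it with ratios of 0.551 to 0.751.

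Other genes of cell division were taken from 8 lists chosen with the members. Of 33 further kinetochore and checkpoint genes, 1 rose in Negative then Bottom 4 against Parental negative: CENPH, an inner kinetochore protein, had 44.8, 42.3 and 45 CPM against 96.1, 140.2 and 72.5 CPM (2.33-fold, adjusted p = 0.0322). Of 17 tested CDK inhibitors and arrest genes, CDKN3, a phosphatase that acts on CDK1 and CDK2, rose in the same comparison from 10.99, 14.1 and 16.0 CPM to 39.0, 42.0 and 25.5 CPM (2.59-fold, adjusted p = 0.0140). In this comparison 0.904% of all tested genes were called higher. For both genes the highest value was that of Negative then Bottom 4 2, a library apart, and fits without that library are not reported here for them. GADD45B, a stress-induced arrest gene, rose in Bottom 10 positive against Top 10 positive, with 18.3, 25.8 and 33.4 CPM against 9.45, 10.8 and 11.6 CPM (2.43-fold, adjusted p = 0.0287). There 0.631% of all tested genes were called higher, and the highest GADD45B value was that of Bottom 10 positive 3, also a library apart.

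Of 12 further mitotic entry regulators, CCNA1, the cyclin A of germ cells, was called in 2 comparisons that share the Top 10 positive libraries. It had 1.12, 1.70 and 1.18 CPM in Top 10 positive, 4.25, 4.85 and 6.23 CPM in Bottom 10 positive (3.82-fold higher, adjusted p = 0.0391) and 4.71, 9.48 and 2.61 CPM in Parental positive (log2 fold change -2.06 for Top 10 positive, adjusted p = 0.0444). Of all tested genes, 0.631% were called higher in Bottom 10 positive against Top 10 positive and 0.325% lower in Top 10 positive against Parental positive. Among the 43 S phase genes, edgeR called 0 in any of the 13 comparisons. In Negative then Bottom 4 against Parental negative their median log2 fold change was 0.52, with 43 of 43 above 1, against 50.6% of all tested genes. Their sum was 1659 CPM in Parental negative 1, against 3848 and 4522 CPM in Parental negative 2 and 3. In Bottom 10 negative against Top 10 negative the median was 0.41, with 42 of 43 above 1, against 49.2% of all tested genes. No gene was called in these comparisons from the lists of 15 transcription factors and repressor subunits, 8 condensin subunits, 18 genes of the anaphase promoting complex and its inhibitors, and 28 further kinesins and spindle genes. FOXM1, the activator of many members, had 78.2, 228 and 278 CPM in Parental negative and 213, 178 and 317 CPM in Negative then Bottom 4, which overlap.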

How the data were processed

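The authors deposited raw counts of reads per gene, 1 file per library, with totals of reads outside genes, ambiguous or at more than 1 place. Per the submitters' processing notes, STAR, HTSeq, DESeq and the build hg19 were used. Versions, gene annotation and strand setting are not given in the sources used here, nor is the sorter used for each sample. The series text speaks of 5 rounds of migration and the titles of 4, 5 and 10, and the titles were followed. Cells of a single-cell clone that the series names were not analysed here.

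From these counts, low genes were dropped with filterByExpr (a count of at least 10, a total of at least 15), and the 15381 genes that passed were fitted with edgeR 4.0.16 (quasi-likelihood, TMM factors, R 4.3.3), all 10 groups in 1 fit. Each of 13 comparisons and 3 interactions was adjusted over all tested genes (Benjamini-Hochberg) at 0.05, and rose, fell and called refer to this. The SE is the size of the log2 fold change over the square root of F. CPM use TMM-scaled library sizes, and log2 CPM a prior count of 2. Reads not assigned to a gene, which include ambiguous reads and reads at more than 1 place, made up 22.1 to 31.8%. For a single value compared 3 against 3, an exact permutation test cannot go below 0.1, so levels were compared through the model.

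Named were all called members, the 3 members with the smallest p where fewer passed, the leading member per length in each role, MKI67, TOP2A, CDK1, CCNB1, PLK1, AURKA, CDC25B, the 5 highest and 5 lowest in correlation and in spread, and up to 5 called genes of each further list. NUF2, PTTG1 and FOXM1 were named after their values were seen where no rule applies, and so was the order of groups for CKAP2L. CCNB2, whose promoter is shown, falls under none of these rules either. The members and lists were chosen with earlier results of these data known, and no list is independent evidence.

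Replicate numbers were taken to pair 2 groups where libraries of the same number correlated above 0.1 for all 3 numbers after group means were removed. Among compared groups this held for Top 10 negative with Top 10 positive (0.31, 0.71, 0.79) and with Bottom 10 negative (0.41, 0.63, 0.69), for Bottom 10 positive with Top 10 positive (0.26, 0.57, 0.55) and with Bottom 10 negative (0.28, 0.55, 0.59), and for Parental negative with Bottom 5 negative (0.59, 0.38, 0.41). It did not hold for Top 10 negative with Bottom 10 positive (-0.12, 0.61, 0.38), which the block in the 4 groups of 10 rounds also spans. The labels state no pairing, so it comes from the data.

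Alternatives were DESeq2 1.42.0, RLE factors, no low-count filter, a replicate block, only the compared groups, leaving out each library, and leaving out the 6 libraries above 30 on the second principal component. The block for Parental negative with Bottom 5 negative, also without each replicate number, and the split by exon length were chosen after seeing the data. On data simulated for Bottom 10 negative against Top 10 negative with 15381 genes, 35 of 100 simulated 2-fold changes were called and 89 of 100 simulated 4-fold ones, none with its sign turned, and 2 of 126 calls were false. The changed genes were drawn from those with higher mean counts, and each gene was simulated independently of the others. The simulation held no libraries apart and no joint movement of genes, so its rates may not carry over to these data. Motifs were searched in RefSeq promoters of GRCh38.p14, matched by symbol, and exon lengths came from GENCODE v29. Both are of another build than the counts. Tables and figures used Python, pandas, numpy and matplotlib.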

Additional observations from a re-analysis of the deposited data

How the results depend on the processing

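The count of members called in Negative then Bottom 4 against Parental negative was 4, and it was 7 with DESeq2, 3 with RLE factors, 0 without the low-count filter, 0 with only the compared groups and 1 without the 6 libraries apart. With 1 library left out it ran from 0 to 6, with 0 without Parental negative 1 or 2. The adjusted p of the 4 genes ran from 0.00532 to 0.490 over these alternatives. A replicate block over all 10 groups left the count at 4. A replicate block in the 4 groups of 10 rounds called 5 members in Bottom 10 negative against Top 10 negative (0 without it, 24 with the block and without replicate 3) and 1 member in Bottom 10 positive against Top 10 positive without replicate 3. A replicate block in Parental negative and Bottom 5 negative called 1 member, and 0 to 2 with 1 replicate number left out, 0 without replicate 2. No other count of calls changed with a block. Leaving out 1 library gave 0 to 1 calls in Top 5 positive against Parental positive, the 1 being CKAP2L without Top 5 positive 2. The median log2 fold change of the members in Bottom 10 positive against Parental positive was -0.10, -0.42 without the 6 libraries apart and between -0.43 and 0.029 with 1 library left out. The median in Top 10 negative against Parental negative ran from -0.25 to 0.29 with 1 library left out. UBE2C had a log2 fold change of 0.51 in Bottom 10 positive against Parental positive. It ran from -0.00014 to 0.72 with 1 library left out, the lowest without Bottom 10 positive 3. The cause of these changes was not tested, beyond the smaller number of libraries or the larger number of genes in the alternative itself. In data simulated for Bottom 10 negative against Top 10 negative, 35 of 100 changes of 2-fold were called after adjustment over all tested genes. These changes were placed in genes with higher mean counts, without libraries apart or joint movement of genes, so the rate may not carry over to the members.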
